A study of Homo sapiens with 12 samples.

Results

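Interferon-stimulated genes are the genes that cells switch on after interferon binds its receptors. The 40 genes described here are a named list of 38 such genes and 2 companions, SLFN5, an interferon-inducible member of the Schlafen family, and MAVS, the adaptor through which RNA sensors signal. They were taken by symbol from the 34318 genes with a matched transcript in the deposited table (RIGI is listed in the annotation under its older name, DDX58). The list was chosen with earlier results of these data known, so it was not blind to the values. All 40 had a matched transcript. Strand-specific messenger RNA libraries were made from HEK293T cells, a human embryonic kidney line that carries adenovirus genes and a viral large T antigen. There were 4 groups of 3 libraries. One experiment compared lipid transfection of an siRNA targeting POLR3A, the largest subunit of RNA polymerase III, with that of a control siRNA, 2 days after transfection (groups siPOLR3A and siControl). The other compared 4 hours with 25 µM ML60218, a small-molecule inhibitor of RNA polymerase III, with 4 hours in the vehicle, 0.1% DMSO.

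RNA sensors of the cytoplasm, RIG-I (RIGI) and MDA5 (IFIH1), bind viral or misplaced RNA and signal through MAVS on mitochondria to the factors that switch on interferon genes. Secreted interferon then acts through its receptors to assemble a complex that includes STAT2 and IRF9 and binds the interferon-stimulated response element in the promoters of its target genes. RNA polymerase III, besides making transfer RNA and other short RNAs, is known to copy AT-rich DNA in the cytosol into RNA that RIG-I detects.

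Each library held between 37008325 and 49479476 estimated reads, of which 8.37% to 8.97% fell on transcripts that could not be assigned to a gene and stayed out of all levels and tests. POLR3A, the target, stood at 92.2, 93.5 and 86.8 CPM (read counts scaled to the library size) in siControl and at 19.3, 19.0 and 14.6 CPM in siPOLR3A, which is -2.36 on the log2 scale (SE 0.108, adjusted p = 1.94e-05, edgeR). It was also lower with ML60218, at 86.5 ± 2.203 CPM against 113 ± 4.99 CPM in DMSO (SD, n = 3 each; log2 fold change -0.38, adjusted p = 0.000229, edgeR). Of 11 kidney and epithelial markers, 6 had at least 10 reads in all 12 libraries, among them PAX2, CDH2 and KRT18. Of 9 leukocyte markers 4 did, LYZ, CD68 and NCAM1 among them, and PTPRC, which marks leukocytes in general, was at 0 in every library. The summed TPM (a level scaled by transcript length and library size) of the leukocyte list was 27.4 to 27.7 in siControl, 21.1 to 21.8 in siPOLR3A, 25.0 to 27.6 in DMSO and 28.5 to 31.6 with ML60218. The part of these shifts in the results below was not tested. Of the fibroblast and endothelial markers, 4 of 6 and 1 of 4 reached 10 reads in every library.

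Most of the list was expressed at a low level. Of the 40 members, 27 had at least 10 estimated reads in all 12 libraries, 7 reached 10 reads in some libraries only, and 6 stayed under 10 reads everywhere (OAS2, OASL, MX2, IFI27, IFI44 and RSAD2). A mean level of at least 1 TPM was reached by 21 members, and at least 10 TPM by 7. Those 7 were IFI6 at 21.7 TPM, EIF2AK2 at 20.2, MAVS at 14.5, STAT2 at 14.2, HERC5 at 12.2, IFIT5 at 11.8 and USP18 at 11.8 TPM. Their ranges over the 12 libraries overlapped for each pair of neighbours in this order: IFI6 spanned 18.2 to 26.8 TPM and EIF2AK2 16.9 to 23.6 TPM. SLFN5 averaged 2.50 TPM. Genes that respond most steeply to interferon in many cell types, such as RSAD2 (viperin), IFI44 and IFI27, were at 0.0292, 0.117 and 0.0963 TPM. No interferon gene was expressed: none of 12 listed type I, II and III interferons had 10 reads in any library, 6 were at 0 throughout, and the highest value was 6 reads, for IFNE.

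**Figure D1:**
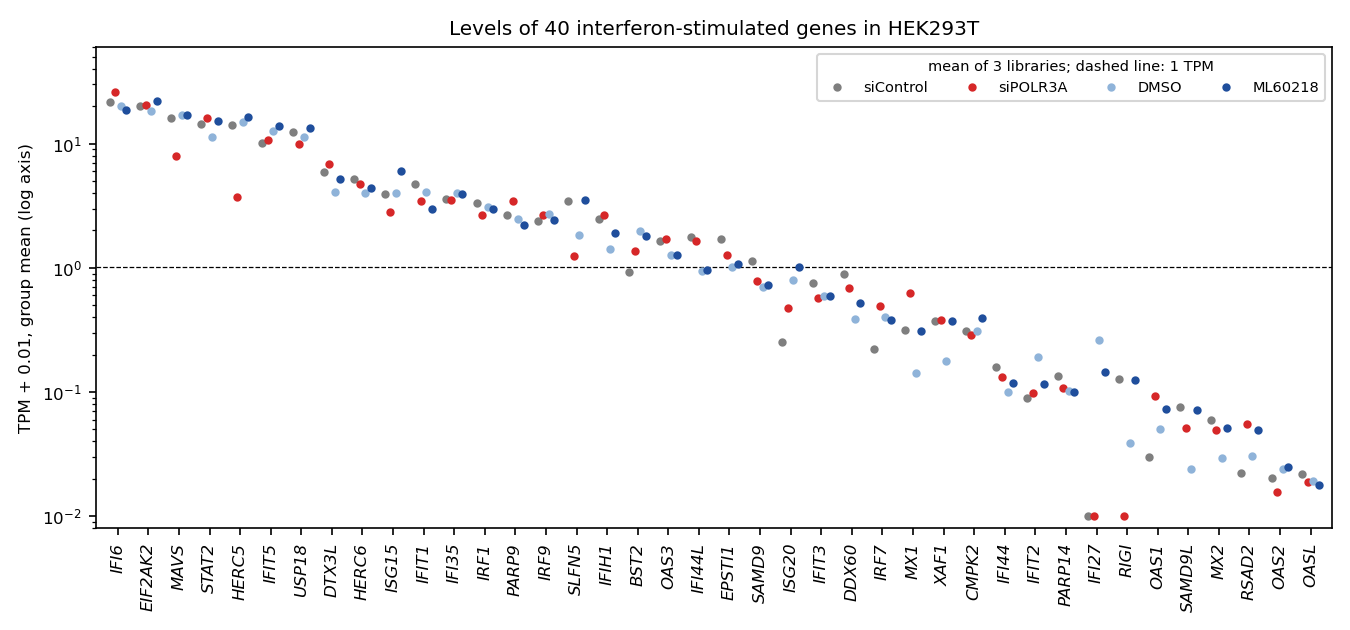
Mean TPM of each of the 40 members in the 4 groups (3 libraries each), on a log axis with a small constant added so that zeros can be drawn; the dashed line marks 1 TPM. IFI6 and EIF2AK2 lead at about 20 TPM, HERC5 and MAVS show the widest drops in siPOLR3A among the highest 7, and RSAD2, OAS2 and OASL lie at the foot of the axis.

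The levels cover matched transcripts only. When transcripts lying between matched transcripts of the same gene in the table were counted too, reads rose by more than 1.5-fold in 7 members, among them OASL (11 to 203 reads in all 12 libraries together), MX1 (143 to 648), STAT2 (18402 to 33482) and OAS3 (1504 to 2653), and stayed the same in 24. Some levels also came from transcripts that do not encode the full protein. Retained-intron transcripts held 100% of the assigned reads of MX2, 97.3% of IRF9, 72.8% of ISG20, 52.5% of MX1 and 40.1% of STAT2. Transcripts marked for nonsense-mediated decay held 100% of PARP14, 53.7% of IRF7 and 46.3% of XAF1.

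Many of the promoters, but not all, carried the mark of the family. The core of the interferon-stimulated response element was searched on both strands as GAAA, any 2 bases, GAAA, in RefSeq promoters of 300 bases (250 before and 50 after the gene start, GRCh38.p14). It was present in 20 of the 33 members with an entry (60.6%), against 3.57% of all 35116 promoters. One window each is given for an IFIT gene, the ubiquitin-like modifier ISG15, the ligase HERC5, which had the largest change of the list, and DTX3L, which rose in both experiments. Capitals mark the core, or its complement where the core lies on the other strand.
IFIT1 promoter, chr10:89392510-89392539, plus strand: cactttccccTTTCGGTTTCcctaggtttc
ISG15 promoter, chr1:1013380-1013409, plus strand: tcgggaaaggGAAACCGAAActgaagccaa
HERC5 promoter, chr4:88457035-88457064, plus strand: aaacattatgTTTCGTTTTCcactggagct
DTX3L promoter, chr3:122564322-122564351, plus strand: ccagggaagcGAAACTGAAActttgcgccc
HERC5 held 3 copies, IFIT1 and ISG15 held 2 each and DTX3L held 1. MAVS and XAF1 held none in this window, and neither did several other members, RSAD2, RIGI, STAT2 and IRF9 among them. SLFN5 was 1 of 7 members without an entry. A match describes letters in the window and is not a binding site by itself.

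After POLR3A siRNA, 3 of the 29 members tested were called and fell by 2-fold or more, HERC5, SLFN5 and MAVS, beside 1.94% of all genes tested. The exonuclease gene ISG20 was the single member called that rose by as much, beside 1.88% of all genes. Because members were chosen with earlier results of these data known, these shares are not an independent comparison. Of the 40 members 29 had enough reads to be tested, and 14 of these were called at an adjusted p under 0.05 (edgeR's quasi-likelihood test with Benjamini-Hochberg adjustment over all 15404 genes tested), 5 higher and 9 lower. This is 48.3% of the tested members, against 56.6% of all genes tested, a share no higher than the background. Not tested in either experiment were OAS1, OAS2, OASL, RIGI, IRF7, MX2, IFI27, IFI44, RSAD2 and SAMD9L. The median log2 fold change of the tested members was -0.04, beside 0.01 for all genes, and their median absolute change was 0.31, beside 0.23. In 16 of the 29 the CPM of the 3 siPOLR3A libraries did not overlap those of the 3 siControl libraries; among all genes tested this share was 63.4%. With upper quartile scaling the split was 7 higher and 8 lower. The labels do not say that replicates are separate cultures, so these p-values measure the spread between these libraries, which may be technical. An exact permutation test of 3 against 3 libraries cannot give a two-sided p below 0.1.

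With ML60218, 6 of 30 tested members were called, 4 higher (XAF1, SLFN5, ISG15 and DTX3L) and 2 lower (IFIT1 and MAVS). That is 20% of the members tested, against 39% of the 15461 genes tested. None changed by 2-fold in either direction among those called. The median log2 fold change was -0.05, beside 0.01 for all genes, and the median absolute change was 0.22, beside 0.17. In 11 of the 30 the libraries of the groups did not overlap, beside 51.9% of all genes. Without DMSO replicate 3 the number called was 3, without DMSO replicate 1 or 2 or ML60218 replicate 2 or 3 it was 4, and with upper quartile or total count scaling it was 4 higher and 1 lower. In both experiments, 13 of the members tested in each were called in neither.

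**Figure D2:**
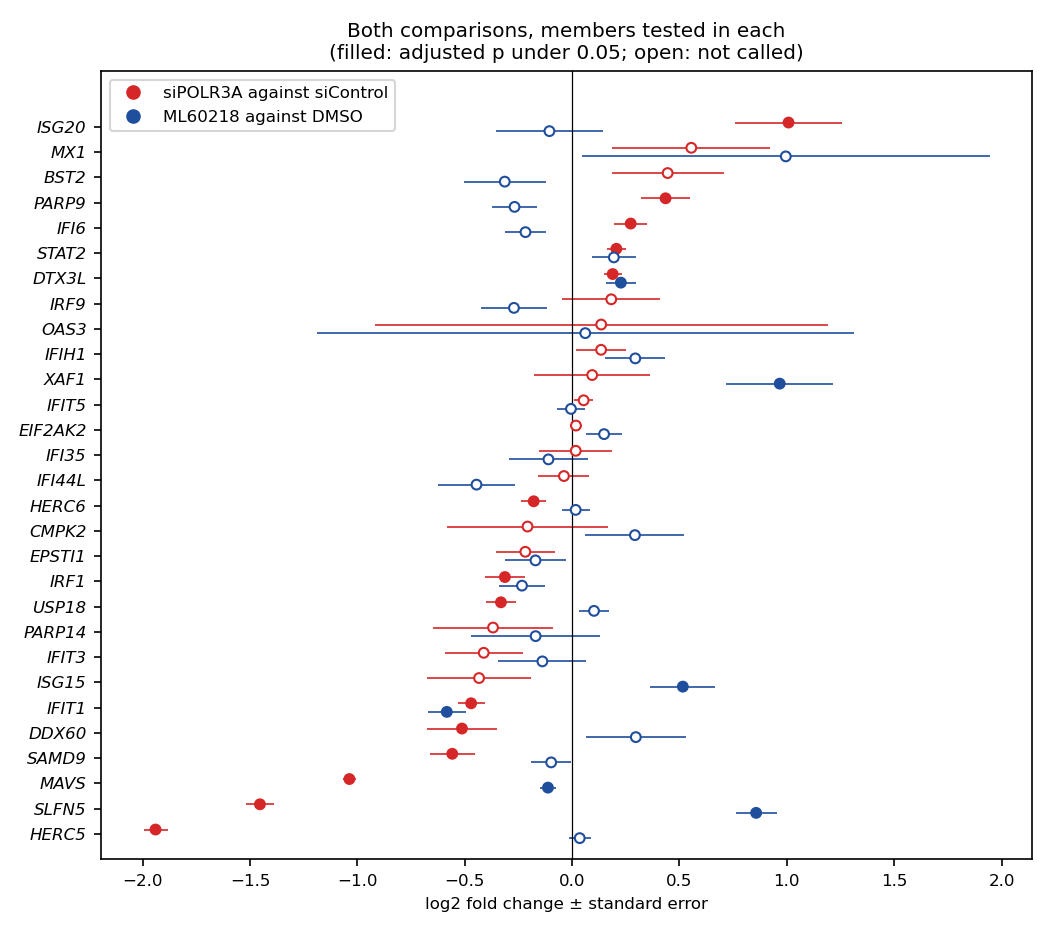
Log2 fold change with its standard error for the members tested in both experiments, red for siPOLR3A against siControl and blue for ML60218 against DMSO; filled points had an adjusted p under 0.05. HERC5, SLFN5 and MAVS stand apart at the left in red, whereas SLFN5 lies at 0.86 in blue, and OAS3 and MX1 have the widest errors.

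To ask whether a member responded differently, the ML60218 effect was subtracted from the siPOLR3A effect within a joint fit of the 12 libraries. Of 32 members tested, 11 were called (34.4%, beside 50.9% of all 15780 genes), 8 with a more negative effect of the siRNA and 3 with a more positive one. Among the members called, SLFN5 and HERC5 had the largest differences, -2.31 and -1.97 on the log2 scale; among all genes 3.86% were called with a difference of -1 or below and 2.38% with one of 1 or above. SLFN5 was also the only one of the 4 members called in both experiments to go in opposite directions; IFIT1 and MAVS were lower in both and DTX3L was higher in both. The experiments differ in agent and in duration, so neither can be held apart from the other in this contrast.

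SLFN5 (ENSG00000166750, chr17:35243036-35273655, plus strand, GRCh38) encodes a nuclear Schlafen protein. Its level was 26.2, 25.1 and 24.6 CPM in siControl and 8.88, 8.68 and 10.2 CPM in siPOLR3A. The groups were far apart, and the fall was 2.74-fold (log2 fold change -1.45, SE 0.067, adjusted p = 3.31e-10, edgeR). In the other experiment it stood at 11.7, 11.9 and 10.9 CPM in DMSO and 19.6, 18.9 and 24.2 CPM with ML60218. Every ML60218 library lay above every DMSO library, and the rise was 1.81-fold (log2 fold change 0.86, SE 0.0952, adjusted p = 0.000284, edgeR). Both calls stood in all 17 fits of each experiment, which were the main analysis and its alternatives, with log2 values from -1.53 to -1.39 and from 0.74 to 0.93. The control levels themselves were unequal, 25.3 ± 0.836 CPM in siControl and 11.5 ± 0.536 CPM in DMSO, each scaled within its own experiment. As TPM, which the authors scaled in each library, they were 3.45 ± 0.292 and 1.82 ± 0.244 (SD, n = 3 each). In bulk RNA, a lower level in every cell cannot be told apart from fewer cells that carry the RNA.

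Both main transcripts of SLFN5 moved with the gene. SLFN5-201, with 90.7% of its reads, went from 23.3 ± 0.574 to 8.82 ± 0.960 CPM after the siRNA and from 10.4 ± 0.317 to 18.3 ± 2.73 CPM with ML60218 (SD, n = 3). SLFN5-202, a shorter coding transcript with 8.65% of the reads, stood at 2.08 ± 0.353 and 0.312 ± 0.415 CPM in the siRNA experiment and at 0.838 ± 0.331 and 2.56 ± 0.191 CPM in the inhibitor experiment. Neither transcript overlapped between the groups of an experiment. Of the 5 other Schlafen genes listed, SLFN12L was the only one with enough reads to be tested. It was called higher with ML60218 at 3.38 ± 0.0802 against 2.39 ± 0.359 CPM (log2 fold change 0.50, adjusted p = 0.0166, edgeR; called in 15 of 17 fits), and not after the siRNA (0.25).

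The ISG15 system attaches the small protein ISG15 to other proteins and removes it again. HERC5 (ENSG00000138646, chr4:88457117-88506163, plus strand), the main ligase that attaches ISG15, had the largest change of all members. Its level was 39.8, 39.0 and 40.02 CPM in siControl and 10.1, 11.1 and 9.70 CPM in siPOLR3A. No library of either group came near the other, and the fall was 3.84-fold (log2 fold change -1.94, SE 0.0559, adjusted p = 2.91e-12, edgeR). With ML60218 it read 40.04, 44.0 and 42.9 CPM, beside 41.4, 43.0 and 39.5 CPM in DMSO; the groups overlapped (log2 fold change 0.04, SE 0.0518, adjusted p = 0.626, edgeR). HERC5-201, the transcript with 83.8% of the reads, went from 32.8 ± 2.65 to 8.63 ± 1.30 CPM after the siRNA, and HERC5-203 from 5.65 ± 2.38 to 0.921 ± 1.05 CPM. HERC6, its neighbour on chromosome 4, moved little, from 13.8 ± 0.0421 to 12.2 ± 0.286 CPM (log2 fold change -0.18, adjusted p = 0.0155), and was not called with upper quartile (adjusted p = 0.0866) or total count scaling (0.0665), an offset for each gene's mean isoform length (the isoform length offset, 0.0799) or DESeq2 (0.13).

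USP18, the protease that removes ISG15 and dampens receptor signalling, was 17.5, 15.4 and 18.2 CPM in siControl and 14.2, 12.9 and 13.5 CPM in siPOLR3A. The lowest control library lay above the highest siPOLR3A library, and the fall was 1.26-fold (log2 fold change -0.33, SE 0.0703, adjusted p = 0.00108, edgeR). With ML60218 it was 16.2 ± 0.611 against 15.1 ± 1.09 CPM in DMSO and was not called (0.10, adjusted p = 0.282). USP18 has a close copy, USP41, and how reads were shared between them was not tested. ISG15 itself was low, with 21 to 79 reads a library. It stood at 1.27, 1.24 and 1.27 CPM in DMSO and at 1.73, 1.93 and 1.75 CPM with ML60218, with no overlap (log2 fold change 0.52, SE 0.152, adjusted p = 0.0223, edgeR). That call held in 9 of 17 fits. It ended without any 1 of the 3 DMSO libraries or without ML60218 replicate 2 (adjusted p from 0.0578 to 0.0689), and under DESeq2 (0.111), the isoform length offset (0.0926), no filter (0.052) and the replicate block (0.0502). After the siRNA, ISG15 was 0.936 ± 0.281 against 1.27 ± 0.184 CPM (-0.43, adjusted p = 0.143).

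Among the RNA sensors and their adaptor, MAVS (ENSG00000088888, chr20:3846799-3876123, plus strand) had the clearest change. It read 155, 154 and 146 CPM in siControl and 71.8, 75.9 and 74.1 CPM in siPOLR3A, with tight groups well apart. The fall was 2.05-fold (log2 fold change -1.04, SE 0.0316, adjusted p = 4.85e-12, edgeR) and lay between -1.06 and -0.98 in 17 fits. With ML60218 it was 149, 138 and 142 CPM, against 152, 158 and 154 CPM in DMSO, without overlap. This difference was small (log2 fold change -0.11, SE 0.0365, adjusted p = 0.0333, edgeR), and it held the call in 7 of 17 fits; without any 1 of the DMSO libraries or without ML60218 replicate 2 or 3 the adjusted p ran from 0.052 to 0.136. MAVS-202, with 89.0% of the reads, was 133 ± 5.88 CPM in siControl and 66.3 ± 1.81 CPM in siPOLR3A, and 135 ± 0.685 and 131 ± 4.29 CPM in DMSO and ML60218. The lesser MAVS-201 was 18.6 ± 3.04 and 7.69 ± 0.588 CPM in the siRNA experiment, and 19.2 ± 3.44 and 11.8 ± 4.65 CPM in the inhibitor experiment.

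EIF2AK2 (PKR), the kinase that double-stranded RNA activates and the highest sensor by TPM, stayed level after the siRNA, at 117 to 121 CPM in siControl and 118 to 123 CPM in siPOLR3A (log2 fold change 0.02, SE 0.027). In DMSO it ranged from 90.5 to 116 CPM and with ML60218 from 112 to 118 CPM, and the groups overlapped (0.15, adjusted p = 0.212). IFIH1, the MDA5 sensor, was called in neither main fit (0.13 and 0.29). With neighbouring transcripts counted it was called higher with ML60218 (0.34, adjusted p = 0.0217, edgeR). DDX60, a helicase linked to RIG-I signalling, was 4.31, 5.03 and 4.46 CPM in siControl and 3.23, 4.00 and 2.42 CPM in siPOLR3A (-0.51, adjusted p = 0.0165, edgeR). The groups did not overlap, and the call ended without siControl replicate 2 (adjusted p = 0.0669) or siPOLR3A replicate 1 or 3 (0.0534 and 0.0544), with the isoform length offset (0.123) and in the fit of all 12 libraries (0.0666).

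The IFIT proteins bind viral RNA. IFIT1, singled out after its values were seen because it fell in both experiments, was 15.8, 17.1 and 17.1 CPM in siControl and 12.1, 12.7 and 11.3 CPM in siPOLR3A (log2 fold change -0.47, SE 0.063, adjusted p = 1.97e-05, edgeR). With ML60218 it was 10.8, 9.26 and 8.69 CPM, beside 14.4, 13.5 and 15.1 CPM in DMSO (-0.58, SE 0.0894, adjusted p = 0.00107, edgeR). Neither pair of groups overlapped and both calls stood in all 17 fits; the effects differed by 0.12 (SE 0.11, adjusted p = 0.395). IFIT5, the highest of the family by TPM, was 28.6 to 30.4 CPM in siControl and 29.5 to 31.1 CPM in siPOLR3A, and 34.8 to 38.6 and 33.1 to 38.4 CPM in DMSO and ML60218. It was called in neither experiment (0.05 and -0.01). IFIT2, tested with ML60218 alone, swung between 0 and 47.5 reads (-0.72, SE 1.44). IFIT3 read 1.52 ± 0.0946 CPM in siControl and 1.14 ± 0.148 CPM in siPOLR3A (-0.41, adjusted p = 0.0684). IFIT1, IFIT2 and IFIT3 lie within the annotated span of LIPA on the opposite strand (5139 reads a library on average), and how the authors' counting treated strand is not given in the sources used here.

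The oligoadenylate synthetases make the messenger that activates RNase L. OAS3, the only one tested, read 8.02, 1.53 and 0.855 CPM in siControl and 1.99, 2.89 and 6.47 CPM in siPOLR3A. In DMSO it was 1.29, 0.543 and 6.98 CPM and with ML60218 0.548, 4.25 and 4.33 CPM. The spread within each group was larger than any difference between groups (log2 fold changes 0.14, SE 1.06, and 0.06, SE 1.25). OAS3-201, its main coding transcript, was estimated at 0 reads in 7 of 12 libraries and at 112 to 229 in the other five. OAS1 had 0 to 10.3 reads a library, and OAS2 and OASL at most 3.

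Among the transcription factors, STAT2, the highest by TPM, was 44.0, 40.2 and 39.4 CPM in siControl and 48.1, 48.2 and 46.2 CPM in siPOLR3A (log2 fold change 0.21, SE 0.0431, adjusted p = 0.000977, edgeR), without overlap. The call ended when neighbouring transcripts were counted (0.05, adjusted p = 0.169), with the isoform length offset (0.15, adjusted p = 0.268) and in the fit of all 12 libraries (adjusted p = 0.0579). With ML60218 it was 43.1, 32.0 and 39.2 CPM against 31.8 to 34.7 CPM in DMSO, with overlap (0.19, adjusted p = 0.182). IRF1 was lower after the siRNA, 7.42 ± 0.786 against 9.23 ± 0.710 CPM (-0.31, adjusted p = 0.00964, edgeR; adjusted p = 0.0546 without siControl replicate 2), and shares its span with another gene on the opposite strand. IRF9, the DNA-binding partner of STAT2, was not called in either main fit (0.18 and -0.27). With neighbouring transcripts counted it was called higher after the siRNA (0.37, adjusted p = 0.000694, edgeR). In that alternative it was lower with ML60218 (-0.28, adjusted p = 0.0233, edgeR), and the effects differed by 0.64 (adjusted p = 0.000284, edgeR). It was also called lower with ML60218 when ML60218 replicate 1 was left out (-0.43, adjusted p = 0.0368, edgeR).

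PARP9 and DTX3L encode partners of an ADP-ribosylation and ubiquitin ligase complex and overlap by 340 bases on opposite strands. DTX3L was 27.4, 27.6 and 27.8 CPM in siControl and 31.2, 31.9 and 31.3 CPM in siPOLR3A, a small rise with no overlap (log2 fold change 0.19, SE 0.0414, adjusted p = 0.0014, edgeR). With ML60218 it was 19.9, 22.4 and 23.2 CPM, against 18.4, 19.5 and 18.1 CPM in DMSO (0.23, SE 0.0685, adjusted p = 0.0249, edgeR). The second call ended without DMSO replicate 1 or 3 or ML60218 replicate 2 or 3 (adjusted p 0.0816 to 0.0868), and with the isoform length offset (0.0559). PARP9 rose after the siRNA from 9.89 ± 0.798 to 13.4 ± 2.11 CPM (0.44, adjusted p = 0.00952, edgeR) and read 7.30 ± 0.963 with ML60218 against 8.80 ± 0.464 CPM in DMSO (-0.27, adjusted p = 0.0673). PARP14, at 10.9 to 25.4 reads, was called in neither, and all of these reads lay on transcripts marked for nonsense-mediated decay.

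**Figure D3:**
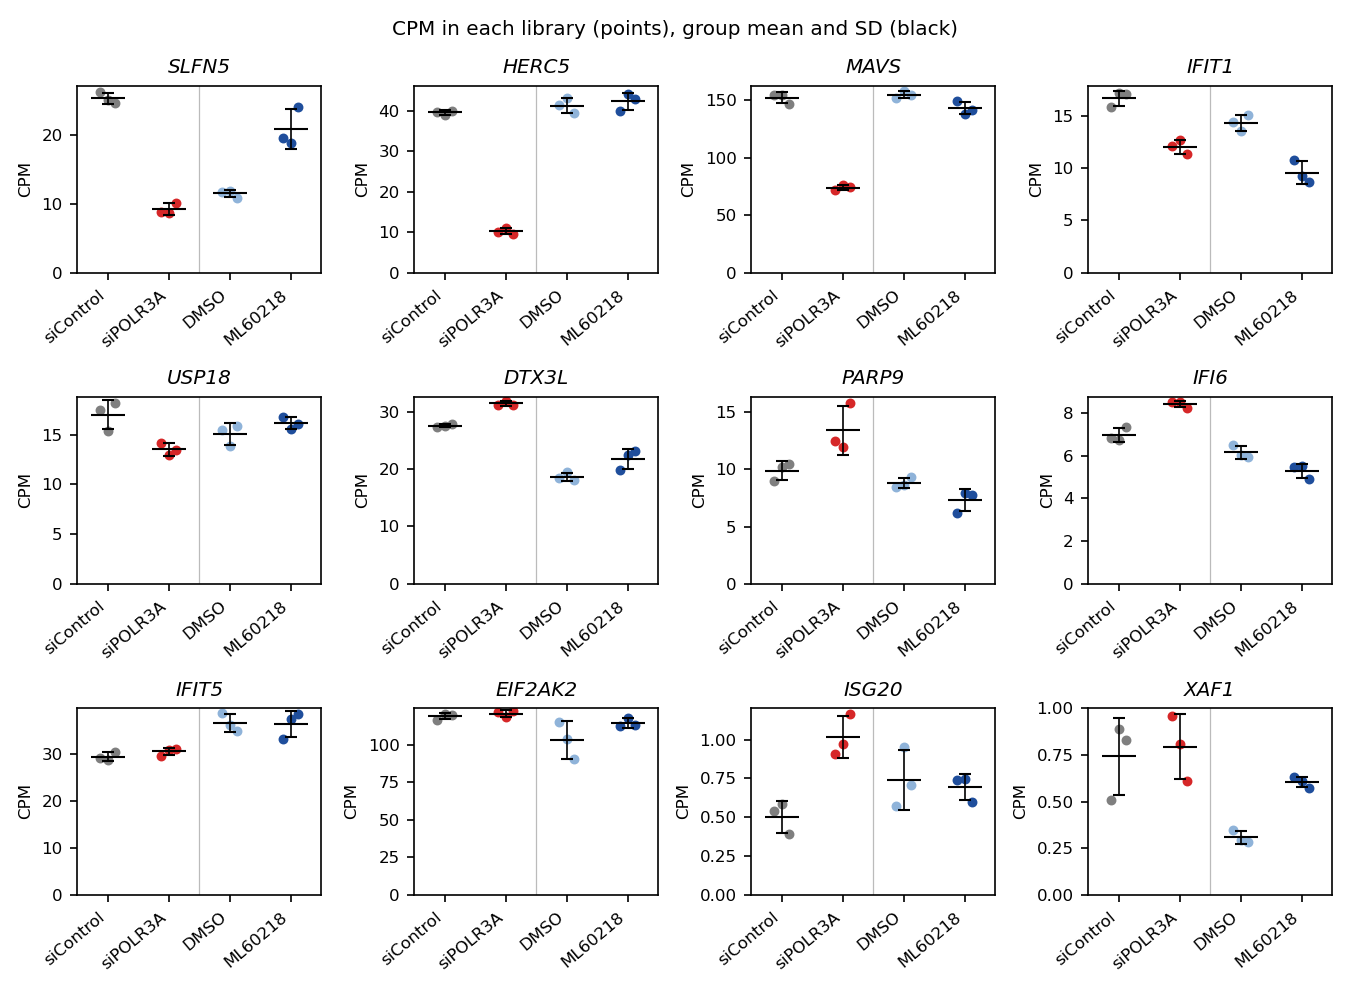
CPM of 12 members in each of the 12 libraries (points), with the group mean and SD in black; each axis starts at 0 and the grey line parts the experiments. SLFN5 is lower in siPOLR3A than in siControl and higher with ML60218 than in DMSO, though siControl is its highest group. HERC5 and MAVS are lowest in siPOLR3A, and IFIT5 and EIF2AK2 stay level within each experiment.

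The remaining effectors were mostly low. IFI6, a mitochondrial and endoplasmic reticulum protein with the highest TPM of the list, was 6.82, 6.73 and 7.34 CPM in siControl and 8.51, 8.49 and 8.24 CPM in siPOLR3A (log2 fold change 0.27, SE 0.0771, adjusted p = 0.00783, edgeR). Its groups did not overlap; DESeq2 gave an adjusted p of 0.0638. With ML60218 it was 5.45, 5.53 and 4.91 CPM, below 5.92 to 6.50 CPM in DMSO, and was not called (-0.22, adjusted p = 0.0961). ISG20, an RNA exonuclease, rose 2.01-fold after the siRNA, from 0.539, 0.584 and 0.389 CPM to 0.906, 0.973 and 1.17 CPM (1.01, SE 0.249, adjusted p = 0.00325, edgeR). These values stand for 15 to 40 reads a library, most of them on the retained-intron transcript ISG20-204 (61.6% of its reads), and with an offset for isoform length the call ended (1.04, adjusted p = 0.122). With ML60218 ISG20 was 0.694 ± 0.0843 against 0.742 ± 0.192 CPM.

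XAF1, a proapoptotic effector, had the largest rise among members called with ML60218, from 0.347, 0.294 and 0.282 to 0.630, 0.608 and 0.575 CPM (log2 fold change 0.97, SE 0.25, adjusted p = 0.0127, edgeR). The groups were apart at 12 to 14 reads against 22 to 26.3 reads a library, and without DMSO replicate 2 the adjusted p was 0.0507. After the siRNA it read 0.793 ± 0.173 against 0.743 ± 0.205 CPM. SAMD9, an antiviral and growth-restricting factor, fell after the siRNA from 6.97, 7.04 and 7.98 to 4.35, 5.19 and 5.42 CPM (-0.56, SE 0.104, adjusted p = 0.000385, edgeR) and was 4.26 ± 0.0394 against 4.56 ± 0.0758 CPM in the inhibitor experiment (-0.10). BST2 (tetherin), IFI35, IFI44L, EPSTI1, CMPK2 and MX1 were called in neither experiment. Their log2 fold changes lay between -0.22 and 0.56 after the siRNA and between -0.45 and 1.00 with ML60218, the largest for MX1 in each, on 1 to 24.6 reads a library.

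The 3 members that fell by 2-fold or more after the siRNA were set beside a hexamer in their 3′ untranslated regions (UTRs). The hexamers GAGGGA and GACGTA, on the transcript strand, were those an earlier analysis of these data had counted; the sequence of the siRNA is not given in the sources used here. In the protein-coding transcript with the highest mean TPM of each gene, the 3′ UTR held GAGGGA in 12 of 38 members (31.6%) and 10 of 27 tested members (37.0%), beside 33.1% of 13637 genes tested after the siRNA. For PARP14 and MX2 the transcript searched had no reads, since none of their reads lay on coding transcripts. HERC5, MAVS and SLFN5 all held it, with 1 copy in 285 bases, 9 in 9963 and 3 in 7767, or 3.51, 0.903 and 0.386 copies per kb, where the genes tested averaged 0.365 per kb. The first copy in each is shown, from GENCODE 29 on GRCh38, with the hexamer in capitals.
HERC5 3′ UTR, chr4:88506015-88506044, plus strand: ataagcaggaaaGAGGGAtgaagaagaggg
MAVS 3′ UTR, chr20:3866479-3866508, plus strand: caggtggagcagGAGGGAccactggaacat
SLFN5 3′ UTR, chr17:35266241-35266270, plus strand: gaagtgctcagtGAGGGAagaacttgtcat
Of the 10 tested members with the hexamer, 2 were called higher and 5 lower after the siRNA, with a median log2 fold change of -0.20; of the 17 without it, 2 were higher and 4 lower, with a median of 0.02. Among all genes tested, 39.3% of those with it and 27.5% of those without it were called lower. EIF2AK2, with 3 copies in 8063 bases, did not fall (0.02). The split takes no account of UTR length: the median over genes tested was 974 bases, beside 9963 in MAVS, 7767 in SLFN5 and 285 in HERC5. Since the hexamers came from these data and the 3 members were taken for their fall, these counts are no independent support. Whether the hexamer has a part in any fall was not tested. GACGTA was in 2 of 38 members, SLFN5 and EPSTI1, beside 3.62% of the genes tested.

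**Figure D4:**
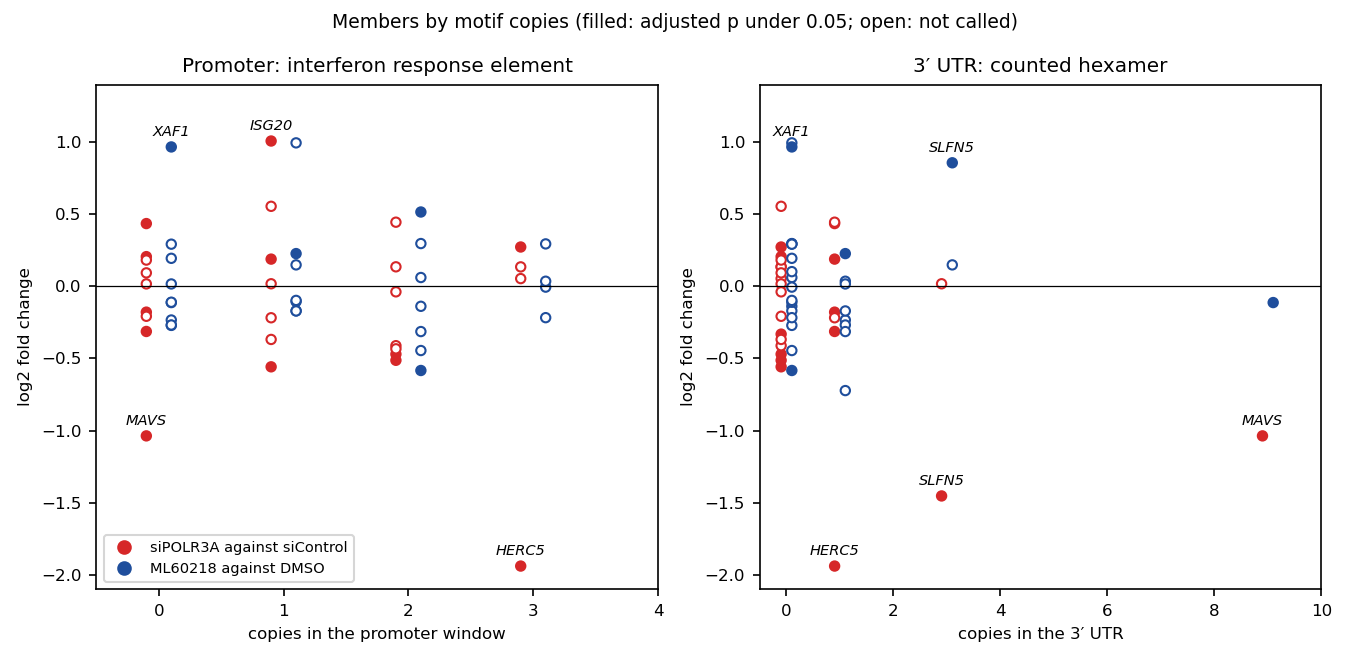
Log2 fold change of tested members against the number of response element cores in the promoter window (left) and of GAGGGA hexamers in the 3′ UTR (right), red for the siRNA and blue for ML60218; filled points had an adjusted p under 0.05. Members with 1 to 3 promoter cores lie on both sides of 0, and on the right HERC5, SLFN5 and MAVS hold 1, 3 and 9 hexamers.

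Members with and without the promoter core were called in both directions. After the siRNA, of 18 tested members with the core, 3 were higher and 4 lower (median log2 fold change -0.01), and of 9 without it, 2 were higher and 3 lower (0.02). Among all genes tested, 24.4% of those with the core were higher and 29.01% lower, and 28.1% and 31.7% of those without it. With ML60218 the counts were 2 higher and 1 lower of 18 (-0.05), and 1 higher and 1 lower of 9 (-0.11), beside 15.8% higher and 19.5% lower of all genes with the core and 18.5% and 22.9% of those without it.

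Beyond the 40 members, 115 further genes of the pathway were listed, from interferons and their receptors to sensors, other interferon-stimulated genes, MHC class I presentation and Schlafen genes, and 112 had a matched transcript. After the siRNA 12 were higher and 26 lower of 83 tested, with a median log2 fold change of -0.01; among all genes tested, 27.4% were higher and 29.2% lower. With ML60218 8 were higher and 16 lower of 84 (-0.03), beside 18.1% and 20.9% of all genes; the split was 10 higher and 9 lower under total count scaling, and 5 higher and 8 lower without DMSO replicate 3. Of the chains of the type I interferon receptor, IFNAR2 went from 35.3 ± 1.68 to 24.3 ± 0.962 CPM after the siRNA (-0.54, adjusted p = 4.73e-07, edgeR), and IFNAR1 from 42.8 ± 5.09 to 19.6 ± 4.17 CPM with ML60218 (-1.13, adjusted p = 0.00577, edgeR). IFNAR2 was also lower with ML60218 (-0.39), and IFNAR1 was not called after the siRNA (0.24, adjusted p = 0.311). IFNGR1, a receptor chain for interferon gamma, rose with ML60218 from 74.7 ± 0.398 to 96.7 ± 4.93 CPM (0.37).

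Among signalling genes, TRIM25, a ubiquitin ligase that takes part in RIG-I activation, fell after the siRNA from 105 ± 3.61 to 42.1 ± 0.308 CPM (log2 fold change -1.31, adjusted p = 8.13e-13, edgeR). TRAF3, which links MAVS to the kinases of the interferon pathway, rose from 36.4 ± 1.73 to 55.6 ± 0.904 CPM (0.61, adjusted p = 1.1e-08, edgeR). RNF135, another ligase of RIG-I, rose with ML60218 from 11.8 ± 0.808 to 18.0 ± 1.67 CPM (0.62, adjusted p = 0.000579, edgeR), and the kinase gene IKBKE was lower there (-0.30), a call held in 7 of 17 fits. Of the other interferon-stimulated genes, SHISA5 fell (-0.78) and TRIM22 rose (0.58) after the siRNA, and RNF213 rose with ML60218 (0.37). SP100 had a log2 fold change of -2.55 with ML60218 (adjusted p = 0.00159, edgeR), but 0.08 (adjusted p = 0.868) when protein-coding transcripts alone were counted. Of 12 MHC class I pathway genes tested, 1 was higher and 6 lower after the siRNA, beside 27.4% and 29.2% of all genes tested. With ML60218, 0 were higher and 3 lower, beside 18.1% and 20.9% of all genes. The median log2 fold changes of these 12 were -0.15 and -0.18. HLA-C had a log2 fold change of 0.14 and HLA-E of -0.34 after the siRNA, and HLA-B one of -0.18 with ML60218, called in 9 of 17 fits. NLRC5, an activator of MHC class I genes named after its values were seen, had -0.85 with ML60218 (adjusted p = 0.0181, edgeR). STING1, PSME1 and PSME2 were not analysed here.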

How the data were processed

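Messenger RNA of 12 HEK293T libraries was sequenced. Per the submitters' processing notes, bcl2fastq 2.20, Trim Galore, DESeq2 and build hg38 were used; per the file headers, the table holds estimated counts and TPM for 194142 transcripts, in the columns salmon writes. The deposited TPM had the same sum in each library. The quantifier's version, settings and transcript release are not given in the sources used here.

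Transcripts were matched by identifier to GENCODE 29 (158359, 81.6%), and the authors' estimated counts were added up by gene, then rounded. Each experiment was fitted on its 6 libraries with edgeR 4.0.16 in R 4.3.3 (filterByExpr, minimum count 10 and total 15; TMM scaling; robust quasi-likelihood test, two-sided; Benjamini-Hochberg over all genes; threshold 0.05), checked on simulated data. The SE is the log2 fold change divided by the square root of F. CPM used the TMM factors of each experiment. The difference of effects was fitted on all 12 libraries.

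Samples were grouped by title. Members, gene lists and hexamers were chosen with earlier results of these data known. Named with library values were members called with at least a 1.5-fold change and the highest by TPM of each role group; USP18, ISG15, DDX60, IFIT1 and SAMD9 were added after their values were seen. Pathway lists gave their largest called change in each direction; 1 such gene is not reported here. Alternatives covered scaling (RLE, upper quartile, total counts), no filter, DESeq2 1.42.0, the replicate number as a block, an isoform length offset, neighbouring transcripts (17252 added), all 12 libraries in one fit, and each library left out; protein-coding transcripts alone were added after the data were seen. Same-numbered libraries did not deviate together, with correlations of -0.10, 0.07 and -0.21 in the siRNA experiment and -0.10, 0.02 and -0.05 in the other.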

Additional observations from a re-analysis of the deposited data

Results flagged for a closer look

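For 11 members the test of the difference itself, the siPOLR3A effect minus the ML60218 effect in one edgeR fit of 12 libraries, gave an adjusted p under 0.05. SLFN5 led with -2.31 on the log2 scale (SE 0.123, adjusted p = 7.67e-10), made of -1.45 after the siRNA and 0.86 with ML60218. HERC5 followed with -1.97 (SE 0.0774), and its effect of the inhibitor was 0.04. MAVS differed by -0.92 (SE 0.049), and ISG15 by -0.95 (SE 0.287, adjusted p = 0.012), with 21 to 79 reads a library. USP18 differed by -0.43 (adjusted p = 0.0024) and SAMD9 by -0.45 (adjusted p = 0.013).

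The siRNA effect was the more positive one for ISG20, by 1.12 (SE 0.345, adjusted p = 0.0133), for PARP9, by 0.71 (adjusted p = 0.00182), and for IFI6, by 0.50 (adjusted p = 0.00173). The differences of DDX60, -0.80 (adjusted p = 0.0476), and HERC6, -0.19 (adjusted p = 0.0474), held in 8 and 7 of 22 fits. Agent and duration differ between the experiments together and cannot be told apart.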

How the results depend on the processing

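SLFN5 and IFIT1 in both experiments, and HERC5, MAVS, SAMD9, USP18, PARP9 and DTX3L after the siRNA, kept their direction and call in every alternative run. With ML60218 the count of members called moved from 6 to 3 with the isoform length offset, and leaving out 1 library gave 3 to 8; for the other pathway genes it gave 13 to 26 beside 24, with 13 lacking DMSO replicate 3. After the siRNA leaving out 1 library gave 12 to 15 members beside 14, and the isoform length offset gave 10 (3 higher and 7 lower). With that offset 8 members were called for the difference of effects, beside 11. The ISG20 difference between the effects reversed to -0.0675 (adjusted p = 0.962) when protein-coding transcripts alone, an alternative chosen after the data were seen, were counted. With the replicate block, the members called were 14 after the siRNA, 4 with ML60218 and 11 for the difference; since the numbers do not pair the libraries, this is no measure of a weaker effect. The cause of these shifts was not tested. Among all genes, the split after the siRNA was 5229 higher and 3672 lower with upper quartile scaling, beside 4222 and 4500, and with ML60218 3889 higher and 1919 lower with total count scaling, beside 2800 and 3229. Depth limits the tested members with few reads: ISG20 (15 to 42 reads a library), PARP14 (10.9 to 25.4), MX1 (1 to 24.6), IFIT2 (0 to 47.5), XAF1 and CMPK2. The 6 members under 10 reads everywhere were not tested. Nor were OAS1, RIGI, IRF7 and SAMD9L, which reached 10 reads in some libraries only.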

Other observations

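RIGI reads were found in replicate 2 alone, at 52.7 reads in siControl, 15.3 in DMSO and 43.7 with ML60218, and at 0 in the other nine libraries, all siPOLR3A libraries among them. They lay on transcript DDX58-202 in siControl and DMSO and on DDX58-201 with ML60218. IFI27 was found in replicate 1 of DMSO and of ML60218 alone, at 7.59 and 3.68 reads. IFIT2 ranged from 0 to 47.5 reads and was at 0 in 6 of 12 libraries.

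IRF7, a factor that amplifies interferon responses, passed the low-count filter in neither experiment. It had 5.37, 1 and 0 reads in siControl and 13.5, 10.5 and 7.69 in siPOLR3A, without overlap. With no filter its log2 fold change was 2.24 (adjusted p = 0.0035, edgeR), a value that rests on at most 13.5 reads a library. SAMD9L read 7, 14 and 11 in siControl and 5.97, 6 and 0 in siPOLR3A (-1.43 with no filter, adjusted p = 0.0404, edgeR). MX1 with ML60218 gave 1.00 (adjusted p = 0.455) with all libraries and 3.39 (adjusted p = 0.0249) without DMSO replicate 2, which held 16 reads where the other DMSO libraries held 1.28 and 1.

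The summed TPM of the 40 members was 151 to 162 in siControl, 137 to 141 in siPOLR3A, 143 to 151 in DMSO and 154 to 172 with ML60218, so that neither pair of groups overlapped. IFI6, EIF2AK2, MAVS, STAT2, HERC5, IFIT5 and USP18 hold most of that sum. It does not show a joint shift of the members, whose median log2 fold change was -0.04 after the siRNA and -0.05 with ML60218. The scale also matters: IFIT5 was 12.6 TPM in DMSO and 13.8 TPM with ML60218, but 36.5 and 36.3 CPM. With total count scaling the median log2 fold change of all genes with ML60218 was 0.08, beside 0.01 in the main fit.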
